A study of Mus musculus with 6 samples.

Results

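Reads of alanine and cysteine tRNA fragments were followed through mouse serum in 6 small RNA libraries. NEBNext, TruSeq and TailorMix, 3 commercial kits for making such libraries, had been used for 2 of them each. The reads were taken from the deposited lists of small RNAs other than miRNA, as the rows of class tRNA whose gene name carries Ala or Cys before the anticodon. Over the 6 libraries these rows held 2100 of 57244 tRNA rows, each row a distinct sequence in a library, and 57210 of 73091881 tRNA reads. They fell under 82 of 403 tRNA gene names, of which 33 were Ala and 49 were Cys. All libraries came from serum of individual healthy 129/SVj mice, a laboratory strain, of both sexes and 2 to 9 months of age. The mice were sedated with tribromoethanol (250 mg/kg), their blood was drawn from the heart and left to clot, and the serum was spun again at high speed to remove cell debris. By label the groups differed only in the kit, which was NEBNext Multiplex Small RNA (New England Biolabs), TruSeq small RNA v2 (Illumina) or TailorMix miRNA v2 (Seqmatic). Final libraries of 125 to 153 bp were collected in agarose cassettes, which limits the lengths of RNA that could be seen. The study asked how strongly the choice of kit bears on the tRNA fragments found in serum.

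A tRNA carries 1 amino acid to the ribosome and reads the codon with its anticodon. Tissues under stress cut mature tRNAs in the anticodon loop with the ribonuclease angiogenin, and the 5′ pieces so made are known as 5′ tiRNAs. Those of alanine and cysteine tRNA begin with a run of guanines, and in stressed cells they displace the cap-binding initiation complex from mRNA and hold back translation. The lists name the gene of each sequence but give neither its letters nor its length. From the lists alone, such tiRNAs, shorter fragments and whole tRNAs could therefore not be told apart. For the mapped reads of these libraries, the paper reports a main length peak matching tRNA pieces cut in the anticodon loop. It places these reads at the 5′ end of tRNA genes, without separate lengths for Ala or Cys. Whether the size selection of the libraries left any whole tRNAs of these types was not tested. The values below are reads of any fragment annotated to these genes.

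Alanine tRNA is encoded with 3 anticodons and cysteine tRNA with 1. RefSeq's annotation of the mouse genome GRCm38.p6 lists 33 nuclear tRNA-Ala genes of 72 to 73 bases and 56 tRNA-Cys genes of 70 to 72 bases. Of 13 Ala genes with anticodon AGC, 9 lie on chromosome 13 between positions 21222586 and 23431484. Of 9 Ala genes with CGC, 5 lie on chromosome X between 136367721 and 136567936, and 7 of 11 with TGC lie on the same chromosome between 136357602 and 136590436. The Cys genes all carry GCA, and 48 of 56 lie on chromosome 6 between 47978997 and 48363603. The gene names in the deposited lists (for example tRNA622-AlaCGC) carry a number but no chromosome, and were not matched to these positions.

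The libraries held 4911281 to 25976737 tRNA reads, which were 95.5% to 98.9% of their annotated reads. With this depth, 3 counts amounted to at most 6.11e-05% of a library's tRNA reads, and neither Ala nor Cys was near this floor in any library. Intervals given below are 95% Wilson intervals and cover counting error only, since the reads carry no molecular identifiers and 1 molecule can give many reads. Nothing in the labels says whether serum 1 and serum 2 were the same sera in all kits. The p-values draw on the spread between these libraries, part of which may be technical. Those from fits over all types or anticodons also depend on the fit.

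As a share of tRNA reads, alanine fragments were most frequent with NEBNext and least frequent with TruSeq. NEBNext replicates 1 and 2 held 24752 and 14907 Ala reads, which were 0.0953% and 0.0889% of their tRNA reads. TruSeq replicates 1 and 2 held 2283 and 1424 Ala reads, or 0.0203% and 0.0156%, and the TailorMix replicates held 3039 and 3100, or 0.0619% and 0.0612%. The 3 kits did not overlap: both NEBNext libraries lay above both TailorMix libraries, and these above both TruSeq libraries. Lack of overlap is no particular feature of Ala. It was seen, in differing orders of the kits, for all other tRNA types but Arg, Asn, Glu and SeC (selenocysteine). Mean Ala shares were 0.0921% ± 0.00451 in NEBNext, 0.0180% ± 0.00331 in TruSeq and 0.0615% ± 0.000470 in TailorMix (SD, n = 2 each). Counting error was small beside these gaps, the widest interval of a single library being 0.0597% to 0.0641%, in TailorMix replicate 1.

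Cysteine fragments were scarcer and followed the same order. The NEBNext replicates held 3651 and 2987 Cys reads (0.0141% and 0.0178% of tRNA reads), the TruSeq replicates 142 and 133 (0.00126% and 0.00146%) and the TailorMix replicates 396 each (0.00806% and 0.00782%). Again no library of a kit reached into the range of another kit, as for all types but Arg, Asn, Glu and SeC. Mean shares were 0.0159% ± 0.00266 in NEBNext, 0.00136% ± 0.000139 in TruSeq and 0.00794% ± 0.000172 in TailorMix (SD, n = 2 each). The fewest reads stood behind the TruSeq values, whose intervals ran from 0.00107% to 0.00149% in replicate 1 and from 0.00123% to 0.00173% in replicate 2. The 2 TruSeq libraries thus agreed within counting error in their Cys share, as did the 2 TailorMix libraries in both shares, while the NEBNext libraries differed by more than counting error in both and the TruSeq libraries in their Ala share.

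**Figure D1:**
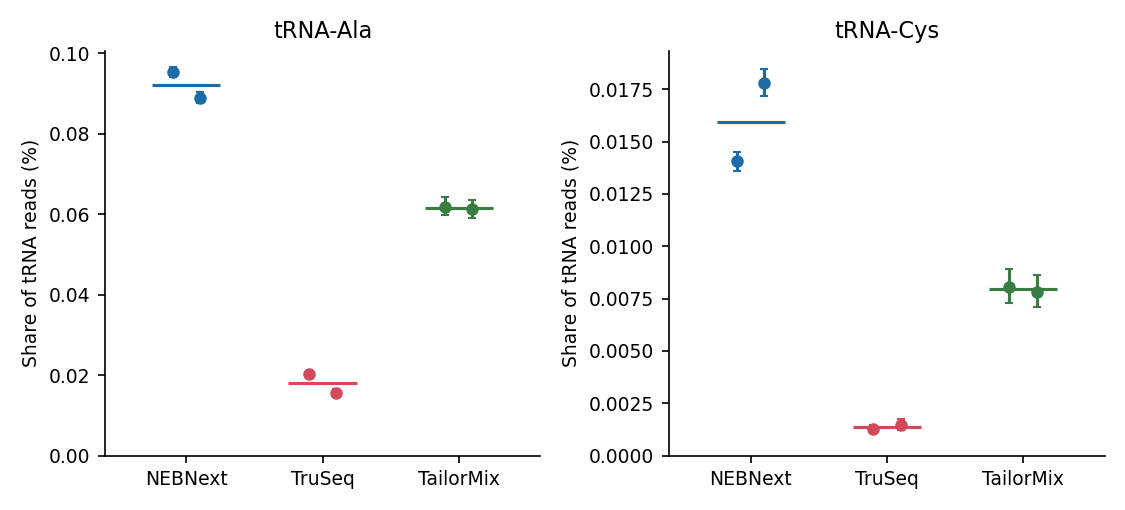
Share of tRNA reads (in %) annotated as tRNA-Ala (left) and tRNA-Cys (right) in each library, by kit. Points are single libraries with their 95% Wilson interval and lines are the mean of the 2 libraries of a kit; the TruSeq libraries lie lowest in both panels, at 0.0156% and 0.0203% for Ala and 0.00126% and 0.00146% for Cys.

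Among the 21 tRNA types, Ala ranked 10th in all NEBNext and TailorMix libraries and 12th in both TruSeq libraries. Its neighbours were Met (0.124%) and Ser (0.0707%) in NEBNext, Met (0.0223%) and Thr (0.0141%) in TruSeq, and Leu (0.216%) and Thr (0.0353%) in TailorMix, given as mean shares of tRNA reads. The libraries of Ala and of each of these neighbours did not overlap within a kit, although with NEBNext the gap to Met was smaller than the SD of Met. Cys ranked 15th in NEBNext and TailorMix, and 18th and 17th in the TruSeq replicates. With NEBNext its range overlapped that of Tyr just above it, although Tyr was the higher in each of the libraries (0.0169% and 0.0238%). With TruSeq its range overlapped that of Asn, which lay above Cys in replicate 1 and below it in replicate 2, so that their order was not resolved. With TailorMix, Arg above it (0.0120%) and Asn below it (0.00280%) lay apart from Cys. Both types belong to the 2.95% to 4.30% of tRNA reads that lay outside Glu, Gly, Val and His.

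**Figure D2:**
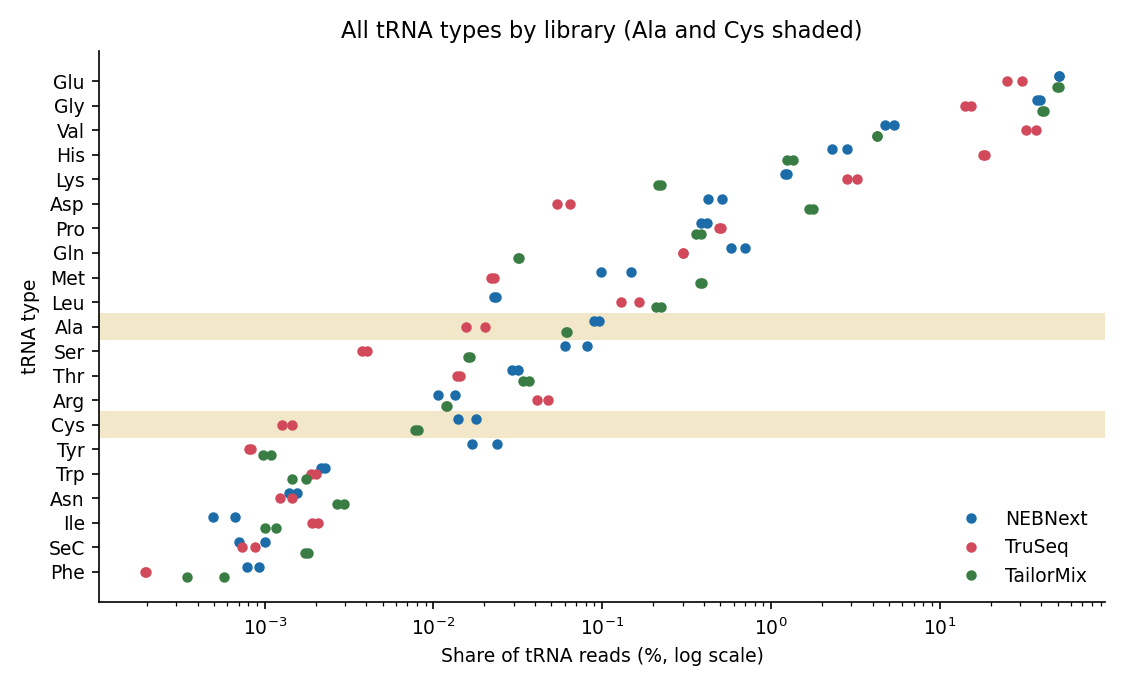
Share of tRNA reads (in %, log axis) of all 21 tRNA types, with 1 point for each of the 6 libraries, coloured by kit and ordered by the mean of the kits. Ala and Cys are shaded; Ala lies between 0.0156% and 0.0953% and Cys between 0.00126% and 0.0178%.

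Differences between kits were tested for all 21 types together with edgeR's quasi-likelihood test on the counts, taking all tRNA reads of a library as its size, and Benjamini-Hochberg adjustment. Over the 3 kits both Ala and Cys passed at an adjusted p under 0.05, as did 95.2% of the types, so that passing this test is no particular feature of either. From NEBNext to TruSeq, Ala fell by 2.36 on the log2 scale (standard error 0.18, edgeR adjusted p = 1.38e-19), which is 5.13-fold lower. Cys fell by 3.55 (standard error 0.21, edgeR adjusted p = 5.93e-25), or 11.7-fold. In the edgeR fit over anticodons given below, the same Cys reads had an adjusted p of only 0.000117. In this contrast 52.4% of types were called lower, and the median log2 fold change of all types was -0.86. Only 2 types had a lower value than Cys, while Ala was the sixth from the bottom.

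TailorMix libraries lay between the other kits on this scale, though TMM normalization over types, but not over anticodons, placed both above NEBNext. From NEBNext to TailorMix, Ala fell by 0.58 on the log2 scale (standard error 0.17, edgeR adjusted p = 0.00167) and Cys fell by 1.004 (standard error 0.18, edgeR adjusted p = 1.91e-06), the latter 2.01-fold lower, whereas after TMM over types both were higher. Here 38.1% of types were called lower. The call of Ala rested on both TailorMix libraries: without either of them its adjusted p was 0.0603, at log2 fold changes of -0.59 and -0.57. From TruSeq to TailorMix, Ala rose by 1.78 on the log2 scale (standard error 0.17, edgeR adjusted p = 1.26e-14) and Cys by 2.55 (standard error 0.21, edgeR adjusted p = 6.66e-18), or 3.43-fold and 5.85-fold, in a contrast that called 57.1% of types higher. The 3 contrasts share libraries and are not independent of each other.

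The other types served as background for these values. Of the 15 types other than Ala, Cys, Glu, Gly, Val and His, 5 were called higher and 7 lower from NEBNext to TruSeq, and 3 neither, with a median log2 fold change of -0.19. From NEBNext to TailorMix 6 were higher, 5 lower and 4 neither, with a median of -0.0019. From TruSeq to TailorMix 8 were higher, 5 lower and 2 neither, with a median of 0.55. The other 4 types moved both ways from NEBNext to TruSeq, with log2 fold changes of 2.79 for Val and 2.84 for His, and of -0.86 for Glu and -1.39 for Gly. All types are parts of the same total. A larger share of Val must therefore lower the sum of the others, though not each of them. The types outside Glu, Gly, Val and His together held 2.95% and 3.31% of tRNA reads in NEBNext and 3.96% and 4.30% in TruSeq. The part of the shared total in the values of Ala and Cys was not tested. In the exact permutation test on shares over the 15 groupings of 6 libraries in 3 pairs, p was 0.0667 for Ala and for Cys, the smallest that this design allows (two-sided, adjusted p = 0.0824 over 21 types). The same p was reached by all other types but Arg, Asn, Glu and SeC.

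The size of the differences depended on what the reads were related to. Per 1000 miRNA reads, Ala numbered 110 and 90.3 in NEBNext, 6.49 and 5.05 in TruSeq and 15.7 in both TailorMix libraries, and Cys 16.2 and 18.1, 0.404 and 0.472, and 2.05 and 2.01. With miRNA reads as library size, the log2 fold change from NEBNext to TruSeq was -4.12 for Ala and -5.30 for Cys, and from NEBNext to TailorMix -2.67 and -3.08. TMM normalization over types and DESeq2 made the gap to TruSeq smaller. The log2 fold change from NEBNext was -0.95 for Ala and -2.14 for Cys with TMM over types, and -1.68 and -2.85 with DESeq2. With annotated reads as library size it was -2.39 for Ala and -3.58 for Cys. With the tRNA reads outside Glu, Gly, Val and His as library size it was -2.76 and -3.95. As a share of the tRNA reads outside Glu, Gly, Val and His, Ala took 3.23% and 2.69% in NEBNext, 0.513% and 0.363% in TruSeq and 1.97% and 2.00% in TailorMix. Both types were lower with TruSeq than with either other kit under every library size tried and with TMM and DESeq2. The order of NEBNext and TailorMix was less firm, since TMM normalization over types turned the log2 fold change from NEBNext to TailorMix to 0.92 for Ala and 0.50 for Cys. TMM over anticodons did not turn it, and left the same Cys reads at -0.77 (edgeR adjusted p = 0.00593), Ala-TGC at -0.93, Ala-CGC at -0.18 and Ala-AGC at -0.34. Over types, TMM moved the median log2 fold change of all types in this contrast from -0.11 to 1.40, and so did not centre it. Relative to that median, Ala stood at -0.48 and -0.47 and Cys at -0.90 and -0.90 before and after TMM.

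**Figure D3:**
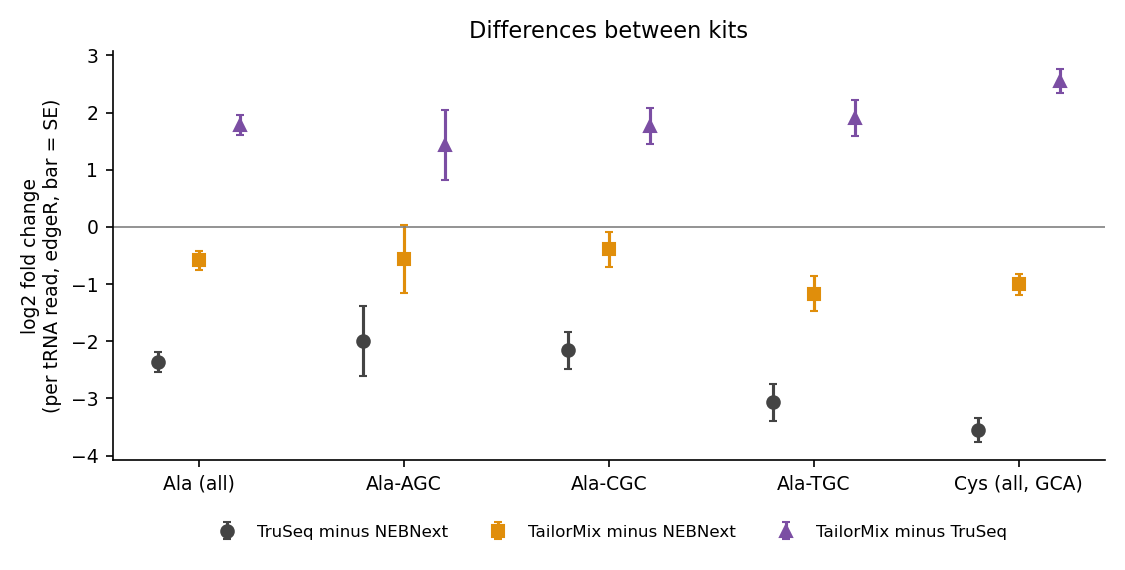
Log2 fold changes between kits (edgeR, relative to all tRNA reads; bars are standard errors) for Ala, its 3 anticodons and Cys, with a symbol for each of the 3 contrasts. All values from NEBNext to TruSeq lie below 0, from -1.99 for Ala-AGC to -3.55 for Cys, and all values from TruSeq to TailorMix lie above 0.

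Ala and Cys did not move by the same factor. The ratio of Ala to Cys reads was 6.78 and 4.99 in NEBNext, 16.1 and 10.7 in TruSeq and 7.67 and 7.83 in TailorMix. Both TruSeq libraries had the highest ratios and both NEBNext libraries the lowest, without overlap between kits (exact permutation test on the log2 ratio, two-sided, p = 0.0667, the smallest possible, 1 comparison). The ratios of other pairs of types were not computed. Whether lack of overlap is particular to this pair is therefore not known, and most single types also lacked it.

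Reads of Ala were spread unevenly over its anticodons, which in these lists means over the anticodons of the genes named. CGC had most of them in every library, with 72.8% and 60.5% of Ala reads with NEBNext, 83.9% and 67.7% in TruSeq and 71.3% and 81.6% in TailorMix. TGC followed with 23.3% and 34.8%, 13.6% and 22.9%, and 22.9% and 15.5%. AGC, although it has the most Ala genes in RefSeq, had only 3.85% and 4.70%, 2.50% and 9.41%, and 5.76% and 2.84%. The libraries of a kit differed widely in these shares. For AGC all kits overlapped, as did all kits for CGC, while the TGC share of NEBNext lay above that of the other kits by a margin far smaller than the gap between its own libraries. The permutation test on the share of AGC gave p = 1.00 (exact, two-sided, adjusted p = 1.00 over the 13 types with several anticodons).

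Levels of the single anticodons were tested by edgeR over the 47 anticodons of all types that passed the filter. Over the 3 kits, CGC, TGC and Cys-GCA were called and AGC was not (edgeR adjusted p = 0.0820), where 74.5% of anticodons were called. From NEBNext to TruSeq all 4 were called lower, beside 42.6% of anticodons. The log2 fold changes were -2.16 for Ala-CGC, -3.07 for Ala-TGC and -3.55 for Cys-GCA (standard errors 0.32, 0.32 and 0.20, edgeR adjusted p = 0.00260, 0.000952 and 0.000117). For Ala-AGC it was -1.99 (standard error 0.62, edgeR adjusted p = 0.0405), a call that was lost without NEBNext replicate 1 (-2.08), NEBNext replicate 2 (-1.90) or TruSeq replicate 1 (-1.42), and the value was -2.95 without TruSeq replicate 2. The call was also lost with TMM (-1.17), DESeq2 (-1.40), sequences of at least 4 reads alone (-2.37) and the replicate block (-2.04). The AGC reads of TruSeq numbered 57 and 134, and 108 of the latter lay on 1 sequence.

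From NEBNext to TailorMix, the log2 fold change of TGC was -1.17 (standard error 0.30, edgeR adjusted p = 0.0245) and that of Cys-GCA was -1.005 (standard error 0.18, edgeR adjusted p = 0.00688), beside 38.3% of anticodons called lower. The call of TGC was lost without NEBNext replicate 2 or TailorMix replicate 2, at -0.91 in both cases. CGC and AGC did not pass, with log2 fold changes of -0.39 and -0.57, but both did with miRNA reads as library size, at -2.49 and -2.65. From TruSeq to TailorMix, CGC, TGC and Cys-GCA were higher by log2 fold changes of 1.77, 1.90 and 2.55 (edgeR adjusted p = 0.00601, 0.00467 and 0.000275), where 38.3% of anticodons were called higher. AGC did not pass (1.43, edgeR adjusted p = 0.0971), except without TruSeq replicate 2, where it was 2.38, and with the tRNA reads outside Glu, Gly, Val and His as library size, where it was 1.86. Cys has a single anticodon, so that with all tRNA reads as library size its fold changes repeat those of the type. The adjusted p are larger in this fit over anticodons than in the fit over types. From NEBNext to TruSeq edgeR adjusted p was 0.000117 here and 5.93e-25 over types, at standard errors of 0.20 and 0.21. The very small p over types thus depend on the fit, and not on the 2 libraries per kit alone.

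Few gene names carried most of the reads. For Ala, tRNA622-AlaCGC led in every library, with 60.4% and 51.0% of Ala reads with NEBNext, 67.8% and 61.2% in TruSeq and 36.5% and 35.6% in TailorMix. Its share was lowest in both TailorMix libraries, where tRNA263-AlaCGC had 30.2% and 29.6% of Ala reads, against 9.63% and 6.68% in NEBNext and 1.97% and 1.90% in TruSeq. Neither name overlapped between TailorMix and the other kits, whereas the sum over CGC did. How many of the other Ala names lacked overlap was not counted, and tRNA263 was chosen after its values were seen. The lack of overlap is therefore no particular result for these names. tRNA1318-AlaTGC had 4.81% and 3.13% in NEBNext, 6.92% and 13.6% in TruSeq and 11.1% and 11.3% in TailorMix. Of the 33 Ala names 16 occurred in all libraries, and 6 had fewer than 10 reads in all.

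Other gene names swapped between libraries of the same kit. tRNA2022-AlaTGC had 3825 and 1025 reads in NEBNext replicates 1 and 2, whereas tRNA637-AlaTGC had 179 and 3128. Likewise tRNA967-AlaCGC had 41 and 502 reads in the TailorMix replicates. For Cys, tRNA1442-CysGCA had 1522 and 103 reads in the NEBNext replicates and tRNA1432-CysGCA 1112 and 1802, while in TailorMix they had 145 and 141, and 100 and 71. Each sequence is listed under 1 gene only, and genes that share the sequence of a fragment cannot be told apart, so that values of single names, and of anticodons summed from them, are uncertain. The Cys reads fell on 49 names, of which 8 occurred in all libraries, 13 in 1 library only and 27 had fewer than 10 reads in all. The most read Cys sequence was named tRNA1442 and tRNA1432 in the NEBNext replicates, tRNA1432 and tRNA1442 in TruSeq, and tRNA457 and tRNA1442 in TailorMix, so that the leading sequences of a kit were named differently.

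**Figure D4:**
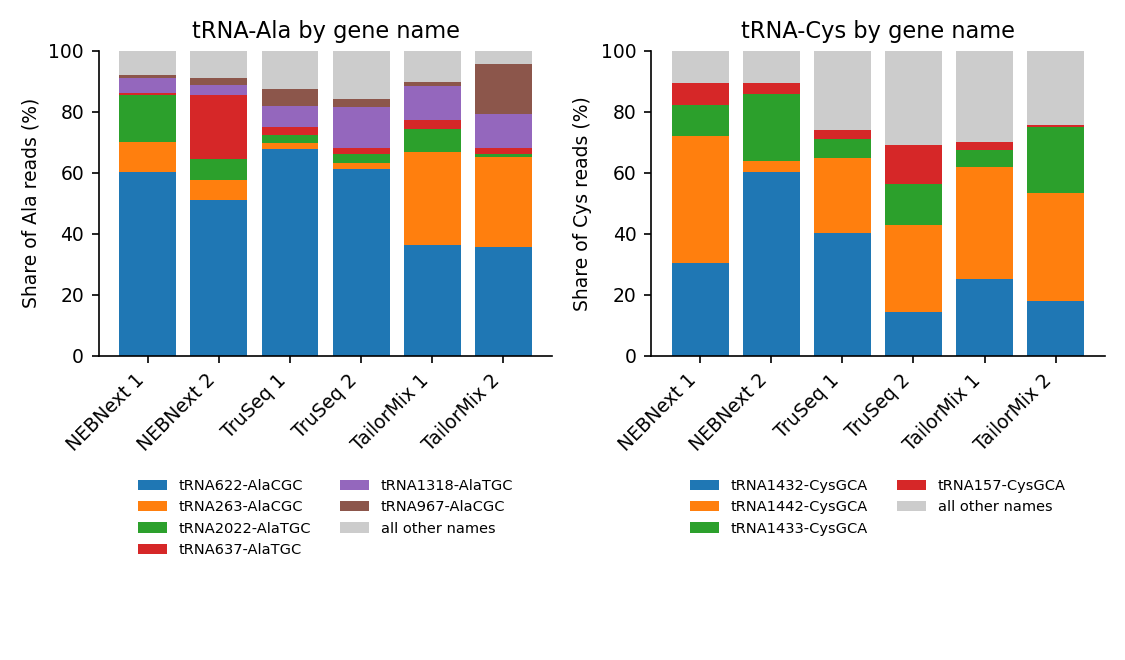
Share (in %) of the Ala reads (left) and Cys reads (right) of each library under the gene names with most reads over all libraries; grey is the sum of all other names. tRNA622-AlaCGC takes 35.6% to 67.8% of Ala reads, and the NEBNext replicates differ in tRNA637-AlaTGC (0.723% and 20.98%) and in tRNA1442-CysGCA (41.7% and 3.45%).

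The reads of a type also differed in how they were spread over distinct sequences. In TruSeq a single sequence, named tRNA622-AlaCGC in both replicates, held 51.4% (1174 reads) and 46.8% (667 reads) of all Ala reads. The leading Ala sequence held 16.2% and 20.1% in NEBNext and 14.4% and 14.2% in TailorMix. It was named tRNA622-AlaCGC in all libraries but NEBNext replicate 2, where it was named tRNA637-AlaTGC. The TruSeq libraries were thus far above the others (two-sided exact permutation test of the kits, p = 0.0667, the smallest possible, adjusted p = 0.0875 over 21 types). Over all types, the leading share was higher in both TruSeq than in both NEBNext libraries for 57.1% of types, lower in TailorMix than in NEBNext for 52.4% and lower in TailorMix than in TruSeq for 38.1%, and Ala was among them each time.

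After the first sequence the TruSeq reads of Ala dropped steeply. The next sequence had 145 and 108 reads in TruSeq, and 3712 and 2683 in NEBNext and 263 and 250 in TailorMix. Per 1000000 tRNA reads, the leading sequence of Ala numbered 104 and 73.1 in TruSeq, on either side of the TailorMix values of 89.4 and 87.1, and below the 155 and 178 of NEBNext. All other Ala sequences together numbered 98.6 and 83.0 in TruSeq, but 529 and 525 in TailorMix and 798 and 711 in NEBNext. The gap between TruSeq and TailorMix in Ala therefore lay in the sequences after the first. As the letters are not listed, it is not known whether the leading sequence is the same in all libraries.

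Cys differed from Ala in this respect. Its leading sequence held 30.2% and 35.2% of Cys reads with NEBNext, but 9.86% and 12.0% in TruSeq and 10.6% and 11.1% in TailorMix. NEBNext stood apart, while TruSeq and TailorMix overlapped (exact permutation test, two-sided, p = 0.200, adjusted p = 0.221 over 21 types). In the leading share NEBNext also lay above both other kits for Asp, Gln, Lys, Ser, Thr and Tyr. For 57.1% of types TruSeq lay above NEBNext instead. The leading Cys sequence had 1103 and 1050 reads with NEBNext, 14 and 16 in TruSeq and 42 and 44 in TailorMix, so that the TruSeq shares are imprecise (95% Wilson intervals 5.96% to 15.9% and 7.54% to 18.6%). Per 1000000 tRNA reads it numbered 42.5 and 62.6 in NEBNext, 1.24 and 1.75 in TruSeq and 8.55 and 8.69 in TailorMix. Unlike for Ala, the leading sequence and the rest (11.4 and 12.8 in TruSeq against 72.1 and 69.5 in TailorMix) were both lower in TruSeq than in TailorMix.

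**Figure D5:**
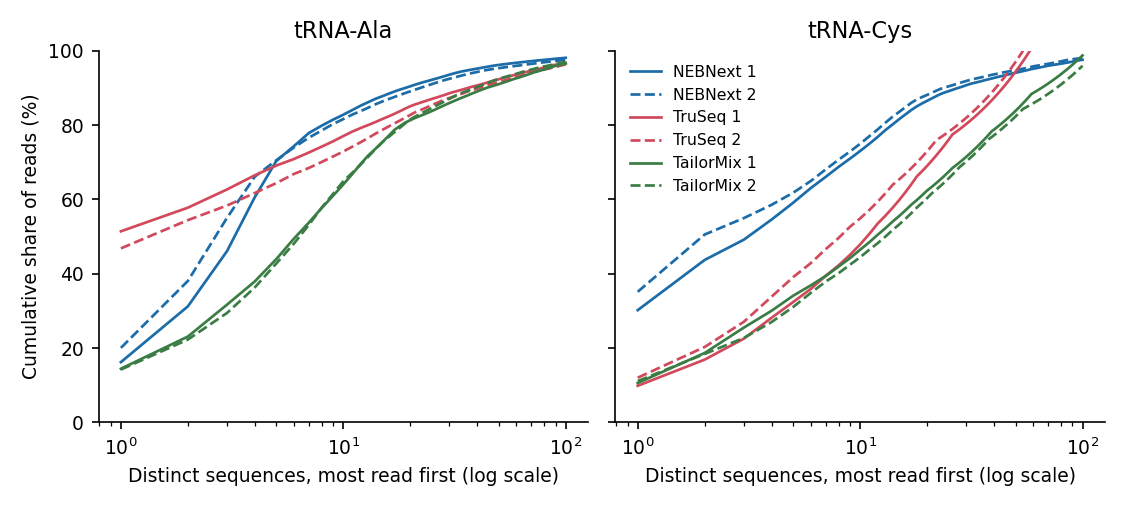
Cumulative share (in %) of the Ala reads (left) and Cys reads (right) of a library held by its distinct sequences, taken from the most read on (log axis, first 100 shown), with solid lines for replicate 1 and dashed lines for replicate 2. For Ala both TruSeq lines start at 51.4% and 46.8%, above all others, and for Cys both NEBNext lines start highest, at 30.2% and 35.2%.

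The effective number of sequences (the inverse Simpson index, the number of equally read sequences that would give the same concentration) summarised these curves. For Ala it was 9.44 and 8.39 in NEBNext, 3.63 and 4.32 in TruSeq and 18.0 and 18.4 in TailorMix. For Cys it was 8.07 and 6.36, 28.5 and 22.7, and 29.4 and 31.6. As computed, the kits did not overlap in either type, and TruSeq was the lowest for Ala (exact permutation test, two-sided, p = 0.0667 for each, adjusted p = 0.0778 over 21 types). Kits were also without overlap, at the same p, for all other types but Ile, Phe and SeC. The index falls when reads are few, and corrected for their number it was 35.4 and 27.2 for Cys in TruSeq and 31.7 and 34.2 in TailorMix, so that these kits overlapped. For Ala the corrected values of 3.64 and 4.33 in TruSeq remained below those of the other kits.

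Counted without regard to depth, NEBNext had the most distinct sequences, 367 and 339 of Ala and 189 and 158 of Cys. TruSeq had 176 and 152 of Ala and 58 and 54 of Cys, and TailorMix 194 and 192 of Ala and 105 and 116 of Cys. Thinned to an equal number of reads, the order turned. In 1424 Ala reads the expected number of sequences was 93.3 and 104 in NEBNext, 138 and 152 in TruSeq and 139 and 132 in TailorMix. In 133 Cys reads it was 34.0 and 32.1 in NEBNext, 55.9 and 54.0 in TruSeq and 59.8 and 62.5 in TailorMix. In every library 43.3% to 59.3% of the sequences of either type had a single read. Such sequences held 22.5% and 24.1% of the Cys reads with TruSeq and at most 15.7% of the reads of either type elsewhere.

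The types whose log2 shares followed Ala most closely over the 6 libraries were Cys (Pearson r = 0.98), Glu (r = 0.97) and Gly (r = 0.95), and those closest to Cys were Ala, Ser (r = 0.97) and Phe (r = 0.95). These are descriptions of 6 points that fall into 3 pairs by kit and share a total, and no p was computed.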

How the data were processed

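Small RNA of mouse serum was sequenced in 6 libraries, and kit and replicate number were taken from the sample titles. The values are counts deposited by the authors without normalization, as reads per miRNA and as reads per distinct sequence of another small RNA, with a running sequence number. Adaptors had been trimmed with cutadapt 1.8.1 and reads mapped with Bowtie 1.1.2 (versions per the submitters' processing notes, genome GRCm38). The methods allowed no mismatch, dropped reads without adaptor, and annotated reads by genomic position.

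Reads were summed by tRNA type and anticodon with Python 3.11.15 and pandas 2.3.3. edgeR 4.0.16 (R 4.3.3; glmQLFit, glmQLFTest, all 6 libraries, no block) tested 21 types without a filter and 47 anticodons with at least 10 reads in at least 2 libraries. The standard error is the log2 fold change divided by the root of F. The scripts were tested on simulated counts. Shares were compared by an exact permutation test of the F ratio between kits. Other library sizes, TMM, DESeq2 1.42.0, the replicate block, fits of 4 libraries and other filters were alternatives, and thinned numbers, effective numbers with and without correction for depth, and reads per 1000 miRNA reads were added after seeing the data. The tRNA types and lists were chosen with earlier results of these data known.

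Over types, the replicates of a kit differed far beyond counting noise (chi-square per degree of freedom 106 to 5217), so each library was counted as a sample. Named in the text are Ala, Cys, their anticodons, the gene names of their most read sequences, the neighbours in order of share and the 3 types most like each. The names tRNA263, tRNA2022, tRNA967 and tRNA1318 were chosen after their values were seen.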

Additional observations from a re-analysis of the deposited data

How the results depend on the processing

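TMM normalization over types turned both types from NEBNext to TailorMix, to log2 fold changes of 0.92 (Ala) and 0.50 (Cys), while TMM over anticodons kept the same Cys reads at -0.77. The cause was not tested. Of the 36 type values with a single library left out, 34 kept their call. The exception was Ala from NEBNext to TailorMix, lost without either TailorMix library (range over all libraries left out, -0.63 to -0.53; the lone TailorMix library is then assumed to vary like the other kits). The numbers of called types or anticodons stayed within 1.5 times of the reported ones in every setting (64 with other alternatives and 48 with a library left out). Of 108 anticodon values under the other alternatives 4 lost and 3 gained the call, as did 5 and 1 of 72 with a library left out. The share of called types that were higher moved by over 10 percentage points under some scalings: from NEBNext to TruSeq it was 38.9%, but 61.1% with TMM, 50% with DESeq2 and 15.8% with miRNA reads as library size, and from NEBNext to TailorMix 42.9%, but 80% with TMM and 5% with miRNA reads. From TruSeq to TailorMix it was 63.2%, and 52.9% with DESeq2.

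With the replicate number as a replicate block, the log2 fold changes of Ala were -2.37, -0.58 and 1.79 and those of Cys -3.55, -0.99 and 2.55 (NEBNext to TruSeq, NEBNext to TailorMix and TruSeq to TailorMix). No call of either type changed, and Ala-AGC from NEBNext to TruSeq lost its call (-2.04). The differences between replicates 1 and 2 over types correlated between kits at 0.200, 0.0508 and 0.118. Such values from single libraries cannot tell whether the sera were the same in all kits. The block was therefore kept as an alternative only.

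The following means by kit, in the order NEBNext, TruSeq and TailorMix, moved by more than 1 SD, in most cases because the quantity itself is another one. Outside Glu, Gly, Val and His, Ala took 2.96%, 0.438% and 1.99% and Cys 0.508%, 0.0329% and 0.256% of tRNA reads. Per 1000 miRNA reads, Ala numbered 100.2, 5.77 and 15.7 and Cys 17.2, 0.438 and 2.03. Of annotated reads, TailorMix had 0.0588% Ala and 0.00758% Cys. From sequences of at least 4 reads alone, Ala was 0.0581% in TailorMix, Cys was 0.000722% in TruSeq and 0.00545% in TailorMix, and the ratio of Ala to Cys was 22.9 in TruSeq and 10.7 in TailorMix. This filter took the largest part from Cys in TruSeq, which had the fewest reads (a mean of 0.00136% of tRNA reads without the filter). These values and the log2 fold change of Cys of -4.39 from NEBNext to TruSeq are therefore no measure of the kits. The 5 leading sequences held 70.4%, 66.8% and 43.4% of Ala and 60.5%, 35.7% and 32.6% of Cys reads, so that for Ala TruSeq stood above NEBNext in the first sequence but not in the first 5. The effective number of sequences was 8.91, 3.98 and 18.2 for Ala and 7.22, 25.6 and 30.5 for Cys, and corrected for depth 8.91, 3.98 and 18.3 and 7.23, 31.3 and 33.0. Thinned, Ala had 98.7, 145 and 135 sequences, and Cys 33.1 in NEBNext and 61.1 in TailorMix. Counting each sequence once, AGC had 20.9%, 15.4% and 22.5% of Ala.

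Low numbers of reads limited Cys in TruSeq (142 and 133 reads) and Ala-AGC (57 reads in TruSeq replicate 1 and 88 in TailorMix replicate 2) most. TruSeq had more tRNA reads (11252517 and 9119851) than TailorMix (4911281 and 5064283), and why it held fewer Cys reads was not tested.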
